A study of Rattus norvegicus with 5 samples.

Results

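Ccl20 and Ccl27, 2 chemokines made by the epidermis, and Ccr6 and Ccr10, the receptors that read them on lymphocytes, were followed in single cells of rat skin. They are 4 of the 30017 distinct gene symbols in the count matrices, all 4 were found, and each was matched by its symbol. The group had been put together with measured values of these libraries in view, so the levels below are a description, and no test was made on them. Skin came from young male Sprague-Dawley (SD) rats. There were 5 libraries with 1 library per group, namely non-irradiated control skin and skin 7, 14, 28 and 60 days after irradiation. The study describes a single electron beam exposure of the buttock for skin of days 7, 14 and 28. It does not describe the day 60 library, the labels give no dose, and how many animals went into each library is not stated. The cells were run on the 10x Genomics droplet platform. The study's account of dissociation, with enzyme digestion and sorting to remove debris and dead cells, is written for skin taken after upper blepharoplasty (eyelid surgery). Whether the rat skin was handled in the same way is not stated there. With 1 library per group, irradiation cannot be told apart from the animal, the digestion or the library preparation, and no p-value between groups was possible.

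Chemokines are small secreted proteins that lead leukocytes along a gradient. CCL20 is made by keratinocytes and other epithelial cells when IL-17, IL-1 or TNF acts on them through NF-kB. Its one receptor, CCR6, is carried by IL-17-producing T cells, many memory and regulatory T cells, B cells and some dendritic cells. CCL27 is made almost entirely by keratinocytes, in healthy as well as inflamed epidermis, and its receptor CCR10 marks skin-homing memory T cells and plasma cells.

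The Ccl20 gene is known to answer NF-kB, so the promoters of both ligands are shown, from 250 bases before to 50 bases after the listed transcript start. Both come from RefSeq (rat build GRCr8, a later build than that of the counts) and read 5′ to 3′ along the gene. For Ccl20 (chr9:91836909-91837208, plus strand) and Ccl27 (chr5:61741730-61742029, minus strand), capitals mark matches to 3 short motifs.
Ccl20: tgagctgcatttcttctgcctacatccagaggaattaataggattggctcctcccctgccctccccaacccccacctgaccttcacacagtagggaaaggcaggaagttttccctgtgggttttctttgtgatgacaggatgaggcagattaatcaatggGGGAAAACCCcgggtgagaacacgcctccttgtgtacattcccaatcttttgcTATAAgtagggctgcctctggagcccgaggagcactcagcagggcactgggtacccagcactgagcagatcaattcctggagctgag
Ccl27: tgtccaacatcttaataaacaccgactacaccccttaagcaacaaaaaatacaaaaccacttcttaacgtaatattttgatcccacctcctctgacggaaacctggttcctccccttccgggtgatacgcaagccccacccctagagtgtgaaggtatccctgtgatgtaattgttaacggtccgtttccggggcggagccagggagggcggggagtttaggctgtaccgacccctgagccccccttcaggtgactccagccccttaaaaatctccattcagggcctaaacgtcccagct
The letters searched on both strands were GGGNNNNCCC (a kappaB-type element), TGANTCA (an AP-1 element) and TATAA (the core of a TATA box), chosen after the Ccl20 sequence had been read. The first occurs in 11.6%, the second in 7.33% and the third in 26.2% of 33465 rat promoters of the same length. In Ccl20 the kappaB-type letters lie 90 to 81 bases and the TATAA letters 37 to 33 bases before the start, and the matches do not overlap. The Ccl27 window holds none of the 3, and its listed start lies inside the annotated span of the gene. No promoter of Ccr10 was at hand, and that of Ccr6 holds no match either.

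Cells were assigned to a type from lists of marker genes that hold none of the 4 genes. Of 10153, 11304, 4370, 9033 and 8548 cells kept in control and on days 7, 14, 28 and 60, 9404, 10234, 3772, 7868 and 8304 were assigned. Keratinocytes numbered 4837, 1869, 2108, 4496 and 6624, and T and NK cells 75, 95, 381, 861 and 218. A UMI (unique molecular identifier) stands for 1 captured transcript, and counts-per-million (CPM) relate a gene's UMIs to all UMIs of the cells of that type in that library. The T cell gene Cd3e stood at 317 to 551 CPM in the T and NK cells of the 5 libraries. Brackets give exact 95% intervals, Poisson for a level and conditional binomial for a ratio, which cover counting error only. Library preparation is known to leave free RNA in droplets, so low levels in other cell types are given beside each result.

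Keratinocytes held most Ccl20 UMIs in every library, 89.2% in control, 88.2% on day 7, 98.6% on day 14, 97% on day 28 and 99.1% on day 60, while they held 55.8%, 26.7%, 84.4%, 80.9% and 90.1% of all UMIs. Their Ccl20 level was 1729 CPM [1719 to 1739] in control, 1583 on day 7, 343 on day 14, 662 on day 28 and 557 on day 60. Control and day 7 skin thus stood near each other at the top, and the 3 later libraries lay below both. The level was 0.916 times that of control on day 7 [0.906 to 0.926], 0.199 times on day 14 [0.196 to 0.202], 0.383 times on day 28 [0.379 to 0.387] and 0.322 times on day 60 [0.319 to 0.325]. The day 7 ratio was not stable: over basal, proliferating and suprabasal cells alone, each given equal weight, it was 1.01 times, and it was 0.161, 0.303 and 0.265 times on days 14, 28 and 60.

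A few cells carried much of this RNA: the 1% of keratinocytes with the most Ccl20 held 17.9% to 23.3% of its UMIs, and 1 control cell held 1231. To set the libraries on 1 depth, each cell with at least 1000 UMIs was thinned to 1000 UMIs. Cells with fewer UMIs were left out of all thinned values. Ccl20 was then seen in 31.8% of keratinocytes in control, 34.6% on day 7, 15.6% on day 14, 23.8% on day 28 and 16.6% on day 60. Without thinning they were 61.1%, 64.4%, 44.1%, 53.3% and 41.4%, where a cell held in the median 10757, 12059, 24723.5, 11563.5 and 15681 UMIs. In mural cells (the muscle and pericyte coat of vessels), which are not a known source, thinning gave 5.31%, 3.85%, 0.583%, 4.15% and 2.18%, from cells with medians of 3588.5 to 6675.5 UMIs.

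**Figure D1:**
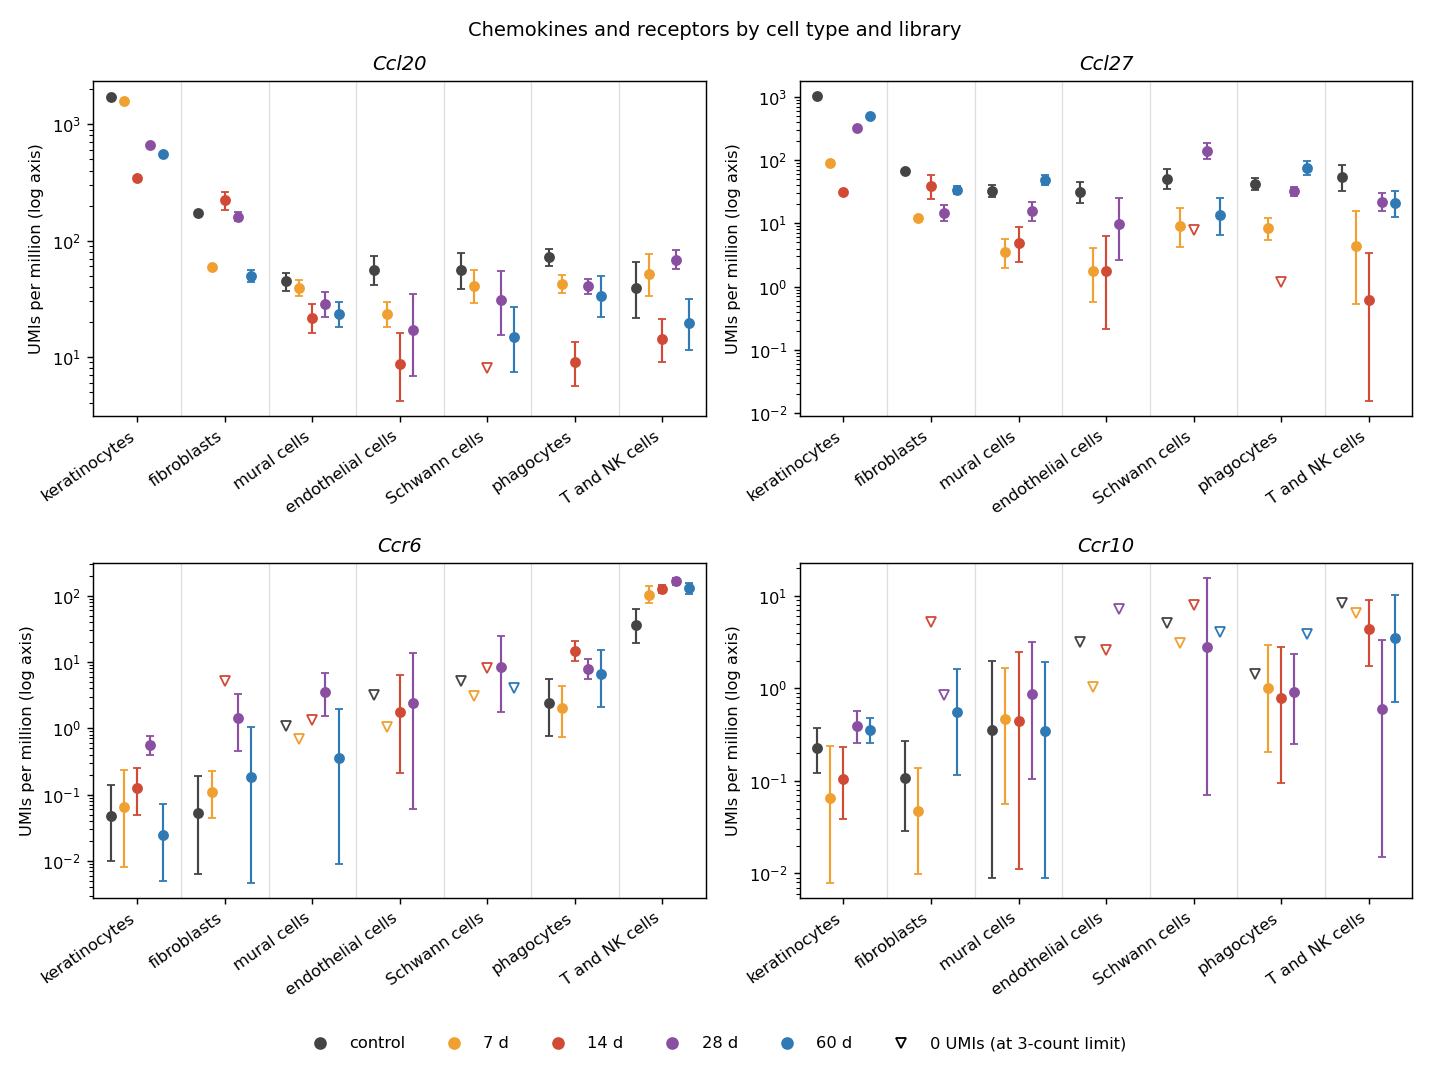
Level of each gene (vertical axis, CPM, log scale) in 7 cell types (horizontal axis) and 5 libraries (colours). Points are sums over all cells of a type in 1 library, bars are exact 95% Poisson intervals, and open triangles mark 0 UMIs, drawn at the level that 3 counts would give. In control, Ccl20 (1729 CPM) and Ccl27 (1010 CPM) were highest in keratinocytes, and Ccr6 was highest in T and NK cells in every library, and Ccr10 stayed at the lower end of what could be counted.

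The layers of the epidermis differed in Ccl20. Suprabasal keratinocytes, the differentiating cells above the basal layer marked by Krt1 and Krt10, held 3434 CPM in control, 2548 on day 7, 538 on day 14, 847 on day 28 and 918 on day 60. Basal keratinocytes, marked by Krt5, Krt14 and hemidesmosome genes, held 1688, 2272, 267, 558 and 381 CPM. Suprabasal cells were above basal cells in all 5 libraries, by 2.04-fold in control, 1.12-fold on day 7, 2.01-fold on day 14, 1.52-fold on day 28 and 2.41-fold on day 60. Basal cells rich in Krt15, a keratin of resting basal and hair follicle stem cells, held less, at 1058 CPM in control, 1007 on day 7, 314 on day 28 and 246 on day 60. The suprabasal level was 2.53 to 3.73 times theirs. Proliferating keratinocytes held 1118, 1476, 201, 485 and 355 CPM in the 5 libraries. The markers of the suprabasal cells differed between the libraries. Krt79, a marker of the upper hair follicle, stood in them at 2460 CPM in control, where upper follicle cells held 1656. On days 7, 14, 28 and 60 it stood at 643, 86.75, 43.65 and 133 CPM in suprabasal cells. Their Krt10 stood at 19220, 6531, 13360, 37120 and 26350 CPM in the 5 libraries. The part of this shift in the suprabasal levels of Ccl20 and Ccl27 and in the ranking of layers was not tested.

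On day 7 the subtypes did not move together. Ccl20 in basal cells was 1.35 times that of control [1.31 to 1.38] and in proliferating cells 1.32 times [1.28 to 1.36], while it was 0.742 times control in suprabasal cells [0.725 to 0.760] and 0.22 times in the upper hair follicle [0.205 to 0.236]. On day 14 all 4 subtypes with enough cells in both libraries (50 or more, cells with no clear subtype counted as 1 of the 4) were at least 2-fold below control. On day 28 5 of 6 and on day 60 7 of 8 subtypes were below control, 4 and 6 of them by at least 2-fold.

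The hair follicle was read in 2 compartments. Upper follicle keratinocytes, marked by Krt79 and Krt17, held 2360 CPM of Ccl20 in control, 520 on day 7 and 464 on day 60. Deeper follicle keratinocytes, marked by Lhx2 and Sox9, held 142 CPM in control, 145 on day 7, 308 on day 28 and 516 on day 60. The 2 follicle compartments were thus far apart in control, 16.6-fold, and close on day 60, when the upper follicle stood at 0.899 times the deeper one [0.838 to 0.964]. The deeper follicle level on day 7 could not be told from control (1.02 times, [0.809 to 1.28], with 56 cells on day 7), and it was 2.17 times control on day 28 [1.9 to 2.47] and 3.64 times on day 60 [3.35 to 3.96]. The markers of these cells differed between the libraries too: Lhx2 stood at 499.9 CPM in control, 375 on day 28 and 232 on day 60, Krt15 at 17140, 6846 and 4114 CPM, and Krt17 at 7341, 15570 and 11340 CPM. The part of such a shift among the assigned cells in the Ccl20 ratio was not tested.

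Keratinocytes with a wound profile (Krt16, S100a8, S100a9, Sprr1b) numbered 50 or more only on days 14, 28 and 60. They held 293 CPM of Ccl20 on day 14, below the suprabasal cells of the same library (0.545 times), 1037 on day 28 (1.22 times) and 952 on day 60 (1.04 times, [0.990 to 1.08], which includes no difference). Sebaceous keratinocytes held 566 CPM in control and 297 on day 60.

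**Figure D2:**
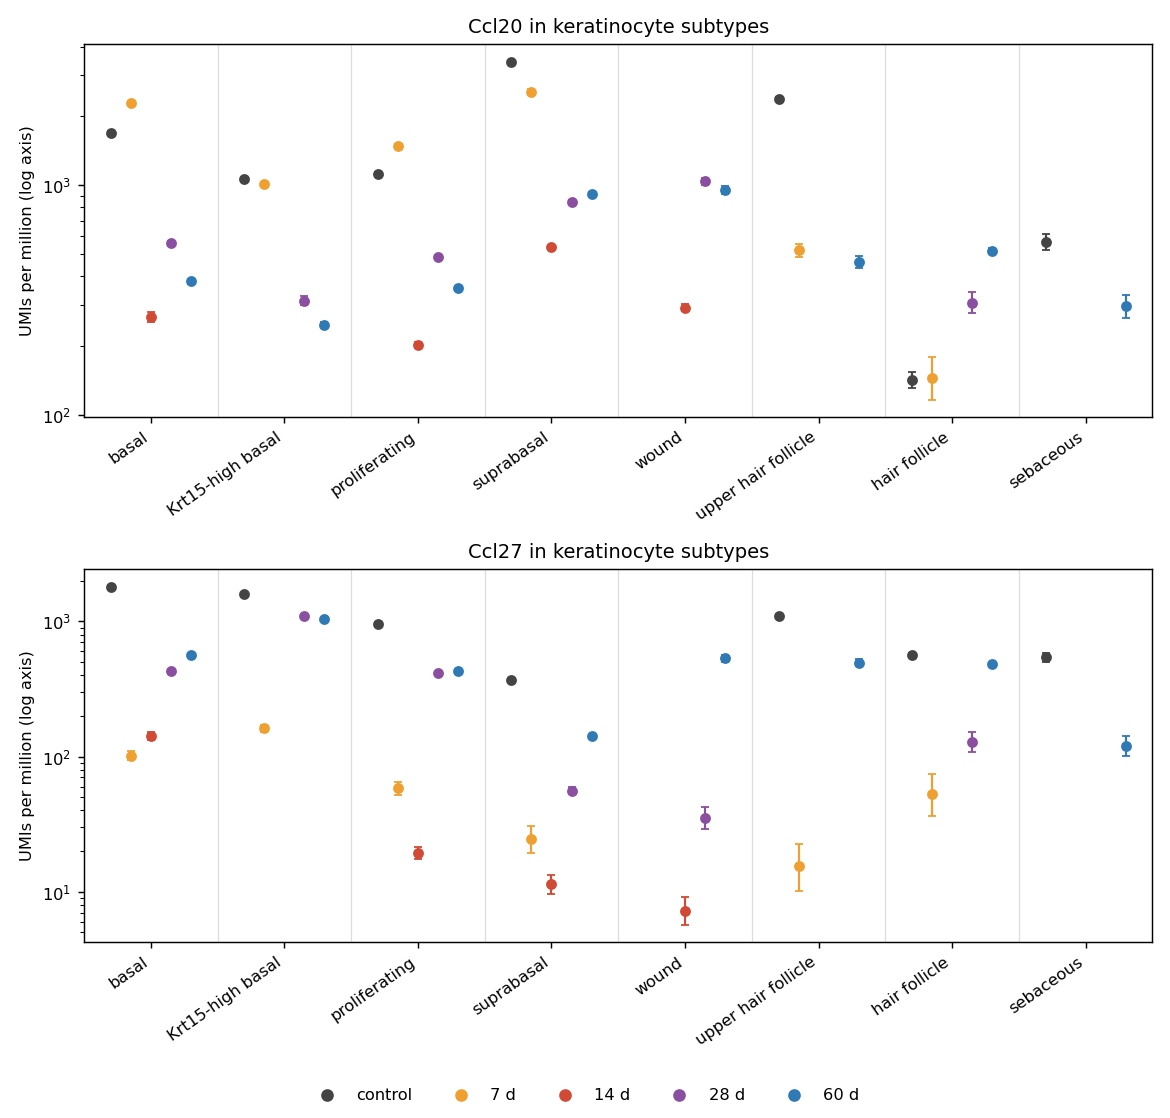
Ccl20 (upper panel) and Ccl27 (lower panel) in 8 keratinocyte subtypes, as CPM on a log axis, in each library (colours) with at least 50 cells of the subtype. Bars are exact 95% Poisson intervals, often smaller than the points. Suprabasal cells lead Ccl20 in control at 3434 CPM, basal and Krt15-high basal cells lead Ccl27 at 1795 and 1598 CPM, and the deeper hair follicle is the one subtype in which Ccl20 is higher on days 28 and 60 than in control.

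Outside the epidermis, fibroblasts held 172 CPM of Ccl20 in control, 58.7 on day 7, 221 on day 14, 161 on day 28 and 49.9 on day 60, above mural cells, at 44.5, 39.3, 21.8, 28.4 and 23.4 CPM. Only 81 fibroblasts were assigned on day 14, and the 1% of fibroblasts with the most Ccl20 held 43.8% to 55.9% of its UMIs. Per 1000 UMIs of 6 keratins (Krt1, Krt5, Krt10, Krt14, Krt15, Krt17), keratinocytes held 56.3 Ccl20 UMIs in control, 54.8 on day 7, 7.74 on day 14, 10.4 on day 28 and 11.8 on day 60. Mural cells held 44, 55.1, 14.6, 10.1 and 12.5, near the keratinocytes of their own library other than on day 14, and fibroblasts held 136, 73.2, 179, 42.1 and 16.4. The part of mixed droplets in the fibroblast value was not tested.

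Ccl27 was lower than in control in the keratinocytes of all 4 irradiated libraries. It stood at 1010 CPM [1002 to 1018] in control, 90.8 on day 7, 30.8 on day 14, 321 on day 28 and 502 on day 60. The level was 0.0899 times control on day 7 [0.0865 to 0.0934], 0.0305 times on day 14 [0.0291 to 0.0320], 0.317 times on day 28 [0.313 to 0.322] and 0.497 times on day 60 [0.492 to 0.503]. The day 14 library was the lowest over all keratinocytes. It also had the largest share of barcodes over 20% mitochondrial UMIs, 25.5% against 6.4% to 14.1% in the others, and the part of RNA quality in its Ccl20 and Ccl27 levels was not tested. In keratinocytes the day 28 level was 10.4 times that of day 14 [9.90 to 10.9]. In basal cells alone it was 3.05 times [2.82 to 3.29], and there day 14 stood above day 7, at 1.39 times [1.26 to 1.545]. Krt15-high basal cells made up 31.7%, 0.854% and 12.5% of keratinocytes on days 7, 14 and 28, and suprabasal cells 8.4%, 25.6% and 34.5%. The part of this makeup in the ranking of the libraries was not tested. On day 14 the ratio to control rested on few cells, since the 1% of keratinocytes with the most Ccl27 held 47.4% of its UMIs. Without that 1% of cells in both libraries the log2 ratio on day 14 was -5.84 in place of -5.03. With equal weight given to basal, proliferating and suprabasal cells it was -4.18, against -4.08 on day 7.

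After thinning to 1000 UMIs, Ccl27 was seen in 45.6% of keratinocytes in control, 7.57% on day 7, 2.15% on day 14, 15.1% on day 28 and 29.3% on day 60 (unthinned 76.9%, 32.1%, 12.7%, 36.7% and 64.1%). The thinned shares in mural cells were 3.19%, 0.502%, 0.292%, 1.89% and 2.42%. The keratinocyte share was above the mural share in each library, and both were lowest on day 14. Fibroblasts held 67.8 CPM in control, 12 on day 7, 38.3 on day 14, 14.6 on day 28 and 33.9 on day 60. On day 14 keratinocytes did not stand above fibroblasts, at 0.804 times their level [0.530 to 1.29], with 81 fibroblasts assigned and thinned shares of 2.15% and 2.7%. In the other 4 libraries the keratinocyte level was 7.59 to 21.9 times that of fibroblasts.

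The layers ranked the other way from Ccl20. Basal cells held 1795 CPM of Ccl27 in control, 102 on day 7, 142 on day 14, 432 on day 28 and 569 on day 60, and suprabasal cells 366, 24.6, 11.3, 56 and 142 CPM. The basal level was above the suprabasal level in all 5 libraries, by 4.91-fold [4.75 to 5.07] in control, 4.14-fold [3.29 to 5.29] on day 7, 12.5-fold [10.5 to 15] on day 14, 7.72-fold [7.26 to 8.2] on day 28 and 4-fold [3.87 to 4.14] on day 60. Krt15-high basal cells held 1598 CPM in control, slightly below the other basal cells (0.89 times), and 161 on day 7, 1105 on day 28 and 1049 on day 60. In these 3 irradiated libraries they stood above the other basal cells, by 1.59-fold, 2.56-fold and 1.84-fold. Cells with a Krt15-high profile numbered under 50 on day 14 and were not measured there.

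Every subtype with enough cells was below control in Ccl27, 7 of 7 on day 7, 4 of 4 on day 14, 6 of 6 on day 28 and 8 of 8 on day 60, again with cells of no clear subtype as 1 of them. All 7 and all 4 were at least 2-fold below on days 7 and 14, against 5 of 6 on day 28 and 5 of 8 on day 60. In the upper hair follicle Ccl27 was 1105 CPM in control, 15.5 on day 7, the lowest ratio of any subtype compared (0.014 times control, [0.00913 to 0.0205]), and 495 on day 60. The markers of these cells differed as well, with Krt79 at 1656 CPM in control and 5161 on day 7, and Krt17 at 12740 and 20250. The part of such a shift in the upper follicle ratios of Ccl20 and Ccl27 was not tested. The deeper follicle held 562 CPM of Ccl27 in control, 52.7 on day 7, 129 on day 28 and 486 on day 60, the last at 0.864 times control [0.820 to 0.911]. Wound-profile keratinocytes held 7.24 CPM of Ccl27 on day 14, 35.2 on day 28 and 534 on day 60. On these days their Krt15 stood at 15.9, 374 and 1975 CPM, Krt5 at 5450, 7644 and 10690, and S100a8 at 16570, 8629 and 4800. The part of this shift in their Ccl20 and Ccl27 levels was not tested.

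As background, among 14098 to 14590 genes with at least 10 UMIs in either library, 7.35% were at least 2-fold lower in keratinocytes on day 7, 36.4% on day 14, 21.2% on day 28 and 19.3% on day 60. At least 2-fold higher were 9.94%, 8.25%, 7.16% and 4.83%. By the same rule Ccl27 was lower in all 4 comparisons and Ccl20 in those of days 14, 28 and 60, which share the control library. The day 60 call of Ccl27 sat on the limit, with a log2 ratio of -1.01, and was lost in 5 of 9 alternative settings, down to -0.75 with cells weighted singly. On day 14 a level at least 2-fold lower was therefore common among keratinocyte genes, and the median log2 ratio over all genes tested was -0.57.

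Both ligands could be found in the same cells. In control, among thinned keratinocytes, 49.8% of those with a Ccl20 UMI had a Ccl27 UMI, against 43.6% of those without. In basal cells these shares were 73.1% and 57.6%, and in suprabasal cells 23.9% and 27.3%. On day 14 the shares over all keratinocytes were 1.57% and 2.26%, from 5 cells with both. Over 37 units of keratinocyte subtype and library, the log2 levels of Ccl20 and Ccl27 had a Pearson r of 0.13, and over all 79 units of cell type and library, most of which hold little of either, it was 0.74. Both are a description of units that share libraries and depth.

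T and NK cells held the highest Ccr6 level of the cell types compared in each library. It was 36.5 CPM [19.4 to 62.4] in control (13 UMIs in 6 of 75 cells), 104 [76.4 to 137] on day 7 (48 UMIs in 27 of 95 cells), 128 [111 to 146] on day 14 (206 UMIs in 99 of 381 cells), 164 [145 to 184] on day 28 (274 UMIs in 191 of 861 cells) and 129 [106 to 155] on day 60 (111 UMIs in 50 of 218 cells). Control was the lowest, and the intervals of days 7, 14 and 60 overlapped. The interval of day 28 overlapped those of days 14 and 60 but not that of day 7. The level was 2.84 times control on day 7 [1.51 to 5.71], 3.5 times on day 14 [2 to 6.68], 4.48 times on day 28 [2.58 to 8.53] and 3.53 times on day 60 [1.98 to 6.84]. These intervals treat each UMI as independent, while the 13 control UMIs came from 6 cells, so they are too narrow.

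Beside these ratios, 17% of 4703 genes tested in T and NK cells were at least 2-fold higher on day 7, 16.6% of 7305 on day 14, 16.3% of 7145 on day 28 and 12.8% of 5390 on day 60, and 4.61%, 5.49%, 11.5% and 15.4% were at least 2-fold lower. Ccr6 was at least 2-fold higher in all 4 comparisons, but with cells thinned to 1000 UMIs its day 7 log2 ratio was 0.67 in place of 1.51, which ends that call. Of T and NK cells with at least 1000 UMIs, thinned to that depth, 2.67% held a Ccr6 UMI in control. The share was 4.26% on day 7, 9.7% on day 14, 14% on day 28 and 7.83% on day 60. Without thinning, over all T and NK cells, it was 8%, 28.4%, 26%, 22.2% and 22.9%, in cells with medians of 4426, 4678, 3861, 1749 and 3680.5 UMIs. In thinned keratinocytes the share was at most 0.0898%. The control library's 75 cells, of which 2 held a thinned UMI, set the precision of each of these comparisons.

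Ccr6 was not even among lymphocytes. IL-17 type cells, defined by at least 2 UMIs over a short list of marker genes that includes Il17a and Il17f, held 195 CPM [150 to 249] on day 14 and 164 [139 to 192] on day 28. The other T and NK cells, which met none or several of the subtype rules, held 149, 177 and 154 CPM on days 14, 28 and 60. The 2 did not differ beyond counting error on day 14 (1.31 times, [0.945 to 1.81]) or on day 28 (0.925 times, [0.718 to 1.2]). On day 60, with under 50 IL-17 type cells, these held 45 UMIs in 40 cells (270 CPM) against 56 UMIs in 90 other cells (154 CPM), a difference that was not tested. The other cells include those that met the IL-17 rule together with another rule. They were not free of Il17a, at 477 CPM on day 14 and 852 on day 28, against 4898 and 9138 CPM in the IL-17 type. The comparison is thus not between cells with and without Il17a. Cytotoxic cells, marked by granzymes, perforin and NK receptors, held 2 Ccr6 UMIs in 89 cells on day 14 (4.87 CPM) and 0 in 74 cells on day 60, which at a limit of 3 counts allows up to 10.6 CPM. The IL-17 type level was 40.1 times the cytotoxic one on day 14 [10.7 to 338], from 64 UMIs against 2.

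The makeup of the T and NK cells differed between libraries. Cytotoxic cells made up 31 of 75 in control, 36 of 95 on day 7, 89 of 381 on day 14, 41 of 861 on day 28 and 74 of 218 on day 60, and IL-17 type cells 1, 12, 59, 437 and 40. Without the cytotoxic cells, Ccr6 stood at 61.6 CPM [32.8 to 105] in control, from 44 cells, and at 180, 169, 171 and 192 CPM on days 7, 14, 28 and 60. The log2 ratio of day 28 to control was then 1.475 in place of 2.16. The irradiated libraries then lay within a narrow range of each other, all above control. Some subtypes held under 50 cells and are given as counts: regulatory cells (Foxp3, Ctla4, Il2ra) held 39 Ccr6 UMIs in 40 cells on day 14, 16 in 40 cells on day 28 and 10 in 14 cells on day 60.

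Phagocytes held less Ccr6, at 2.38 CPM in control, 2.01 on day 7, 14.8 on day 14, 7.86 on day 28 and 6.47 on day 60. On day 14 34 of their 38 UMIs lay in phagocytes with neither macrophage nor dendritic markers in the lead (22.45 CPM). In that group the T cell gene Cd3g stood at 5.79 CPM in control, 30 on day 7 and 86.5 on day 14, with Cd3e at 0 in all 3, and over all phagocytes Csf1r went from 422 CPM in control to 42.1 on day 14 and Lyz2 from 6337 to 593. The part of T cell RNA in the phagocyte value was not tested. Dendritic and Langerhans cells, a known site of Ccr6, held 5.55, 6.94 and 7.1 CPM on days 14, 28 and 60, and C1q macrophages 0 to 1.62 CPM, from at most 2 UMIs in any library. Keratinocytes held 0.0243 to 0.554 CPM.

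**Figure D3:**
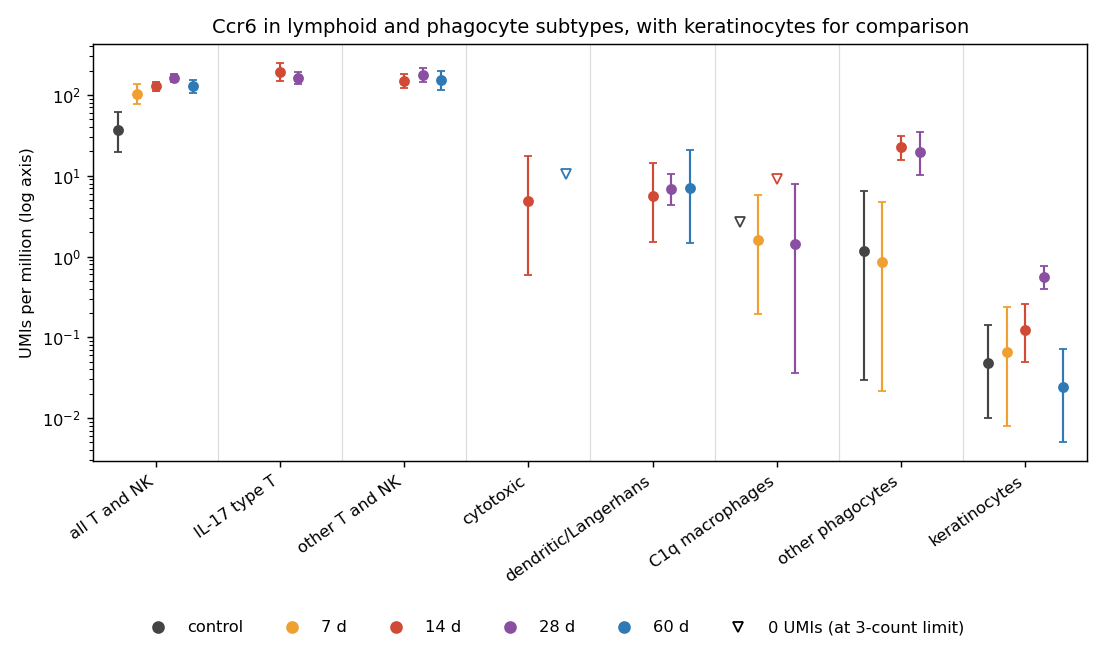
Ccr6 (CPM, log axis) in T and NK cells, their subtypes, phagocyte subtypes and keratinocytes (horizontal axis), for each library (colours) with at least 50 cells. Bars are exact 95% Poisson intervals and open triangles mark 0 UMIs, drawn at the level of 3 counts. IL-17 type and other T cells sit between 149 and 195 CPM, and cytotoxic cells at 4.87 CPM on day 14 and 0 UMIs on day 60.

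Ccr10 was close to the limit of what these libraries could count. T and NK cells held 0 UMIs in control, which at a limit of 3 counts allows up to 8.42 CPM, 0 on day 7 (up to 6.47 CPM by the same limit), 7 on day 14, all in 1 regulatory cell, 1 on day 28 and 3 on day 60, in 3 cells. Keratinocytes held 14 UMIs in control, 2 on day 7, 6 on day 14, 27 on day 28 and 44 on day 60, or 0.0658 to 0.394 CPM, and at most 2 B and plasma cells were assigned in any library. No difference from control in the Ccr10 level of T and NK cells was detectable at this depth. The receptor of Ccl27 could therefore not be placed in a cell type. In the rat annotation at hand, of another build than that of the counts, Ccr10 overlaps Cntnap1. Ccl27 and Ccr6 each overlap a long non-coding RNA gene there. Whether such overlaps touched the counts of these genes was not tested.

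The signals known to induce Ccl20 were measured by a list of 16 genes. In T and NK cells, Il17a stood at 14 CPM in control, 158 on day 7, 1197 on day 14, 5276 on day 28 and 790 on day 60, and Il17f at 0, 73.4, 300.4, 447 and 41.7 CPM. Il22 stood at 0, 30.2, 35.3, 158 and 29 CPM. Of the list, 4 of 9 measured genes were at least 2-fold higher in T and NK cells on day 7, 4 of 12 on day 14, 8 of 13 on day 28 and 5 of 10 on day 60, beside 17%, 16.6%, 16.3% and 12.8% of all genes tested. At least 2-fold lower were 0, 0, 0 and 2, beside 4.61%, 5.49%, 11.5% and 15.4%. With few control cells, a gene could reach the 10 UMIs needed through the irradiated library alone, as Il17f and Il22 did. The measured genes are therefore not the whole list. Il1b was highest in neutrophils, at 16560 CPM on day 14 and 8704 on day 28, the 2 libraries with enough of them, and Il23a was highest there too, at 1442 and 603 CPM. Tnf was listed at 0 in every cell type and library compared. A gene at 0 throughout cannot be told apart from a gene whose reads were not counted, so absence of Tnf RNA cannot be read from it.

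Receptors and signalling genes of the list were read in keratinocytes. Il17ra, a receptor chain for IL-17, stood at 27.7, 17.6, 13.3, 16.4 and 10.8 CPM in the 5 libraries, and Il17rc at 33.6, 21.8, 42, 33.3 and 26.9. Nfkbiz, the NF-kB cofactor of IL-17 responses, stood at 346, 303, 117, 272 and 221 CPM. Of the same list, 1 of 12 was at least 2-fold higher on day 7 and 0 lower, 3 higher and 4 lower of 13 on day 14, 5 higher and 1 lower of 15 on day 28, and 1 higher and 5 lower of 13 on day 60. Of all genes tested in keratinocytes, 9.94%, 8.25%, 7.16% and 4.83% were at least 2-fold higher on these days, and 7.35%, 36.4%, 21.2% and 19.3% lower. The median log2 ratio of the list was -0.32, -0.68, -0.01 and -0.77, where that of all genes tested was 0.11, -0.57, -0.28 and -0.22. Il17a itself reached 17.2 CPM in the keratinocytes of day 28 skin, the library with 5276 CPM in its T and NK cells.

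Other keratinocyte genes that IL-17 and NF-kB are known to induce were read beside Ccl20. S100a8, a subunit of calprotectin, stood at 6 CPM in control keratinocytes, 59.8 on day 7, 8003 on day 14, 1075 on day 28 and 297 on day 60. Defb4, a beta-defensin, stood at 0.016, 0.0329, 27.6, 0.962 and 0.0811 CPM, and Il24, a cytokine of the IL-20 group, at 23, 37.2, 142, 123 and 57.4 CPM. All 3 were highest in the day 14 library, in which Ccl20 was lowest. Of the 16 genes, 4 of 14 measured were at least 2-fold higher and none lower on day 7, 11 higher and 2 lower of 16 on day 14, 8 higher and 1 lower of 15 on day 28, and 6 higher and 6 lower of 15 on day 60. Of all genes tested in keratinocytes, 9.94%, 8.25%, 7.16% and 4.83% were at least 2-fold higher on these days, and 7.35%, 36.4%, 21.2% and 19.3% lower. The median log2 ratio of the list was 0.43, 2.68, 1.68 and -0.15, where that of all genes tested was 0.11, -0.57, -0.28 and -0.22.

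Other genes of the list were below control on days 14, 28 and 60. Cxcl1, a neutrophil chemokine, stood at 583 CPM in control keratinocytes, 773 on day 7, 212 on day 14, 216.5 on day 28 and 267 on day 60, and Il6 at 20, 21.85, 6.4, 10.3 and 3.77 CPM. By contrast, Cxcl2 and Cxcl3, chemokines of the same group as Cxcl1, stood at 47.5 and 54.1 CPM in control and at 144 and 158 CPM on day 14. S100a8, S100a9, Krt16 and Sprr1b are also the markers of the wound profile and the first 2 are markers of neutrophils, which held S100a8 at 15730 CPM on day 14. The part of neutrophil RNA in the keratinocyte levels of these genes was not tested.

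**Figure D4:**
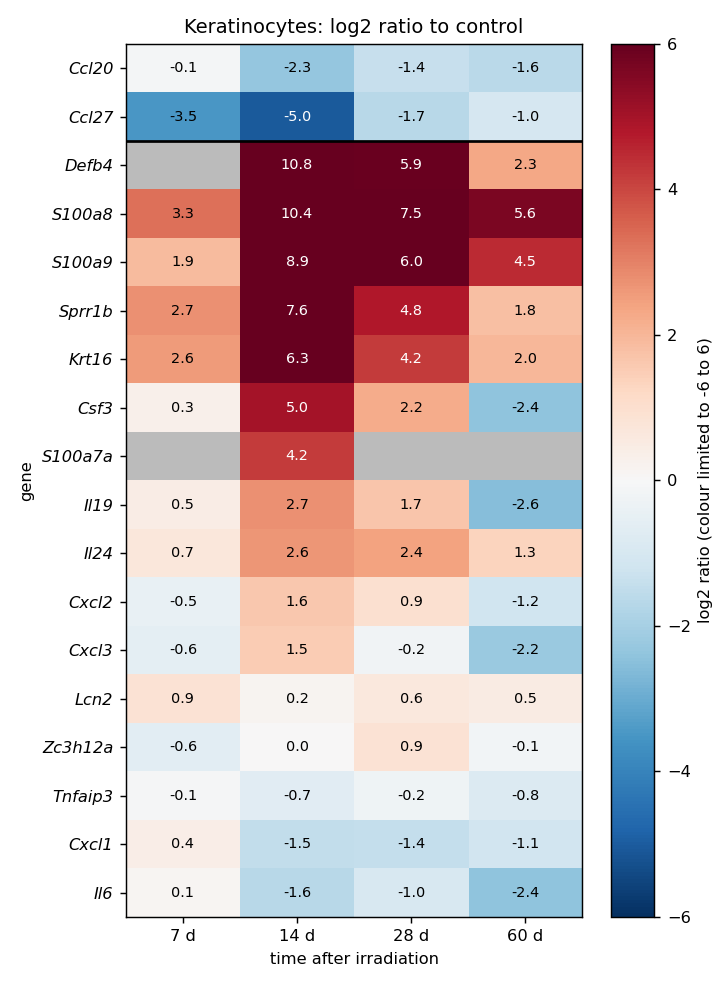
Log2 ratio of each irradiated library to control in keratinocytes (columns, time after irradiation) for Ccl20 and Ccl27 (above the line) and 16 genes known to be induced by IL-17 and NF-kB (below it, ordered by the day 14 ratio). Grey cells had under 10 UMIs in both libraries, and the colour scale stops at 6 and -6. On day 14 11 of the 16 genes were at least 2-fold higher than in control, beside 8.25% of all genes tested, and Ccl20 stood at -2.33.

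Genes known beside Ccr6 in IL-17-type lymphocytes were counted in T and NK cells. Of 11 symbols, 9 were found in the files. At least 2-fold higher than control were 2 of 4 measured on day 7, 3 of 5 on day 14, 4 of 7 on day 28 and 2 of 4 on day 60, beside 17%, 16.6%, 16.3% and 12.8% of all genes tested. None was lower, where 4.61%, 5.49%, 11.5% and 15.4% of all genes tested were. With 75 control cells, a gene could reach the 10 UMIs needed through the irradiated library alone, so the measured genes are not the whole list. Blk, a kinase of IL-17-producing gamma delta T cells, stood at 2.81, 47.5, 29.7, 65.6 and 41.7 CPM, and Maf, a transcription factor of such cells, at 14, 19.4, 45.8, 54.9 and 41.7 CPM. Rora, highest of the list, stood at 241, 380, 351, 464 and 145 CPM, and Il23r at 8.42, 23.7, 37.2, 29.2 and 6.96.

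Adhesion genes of skin homing were counted in T and NK cells too. At least 2-fold higher were 4 of 6 measured on day 7, 5 of 7 on day 14, 4 of 6 on day 28 and 4 of 6 on day 60, beside 17%, 16.6%, 16.3% and 12.8% of all genes tested. None was lower, where 4.61%, 5.49%, 11.5% and 15.4% of all genes tested were. Here too a gene could reach the 10 UMIs needed through the irradiated library alone, so the measured genes are not the whole list. Itgae, the integrin chain that holds T cells in epithelium, stood at 25.25, 79.8, 67.5, 206 and 143 CPM. Fut7, which makes the sugar ligand for E-selectin, stood at 8.42, 34.5, 33.45, 36.4 and 12.75 CPM. In endothelial cells Sele, or E-selectin itself, stood at 24.2 CPM in control, 110 on day 7, 380 on day 14 and 99 on day 28, and Selp at 419, 373, 684 and 55.5 CPM.

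The other chemokines of lymphocyte traffic were read in the cells that held most of them. Ccl22, a ligand of Ccr4, was highest in phagocytes, at 16.2, 136.5, 557, 602 and 198 CPM, and Ccl17, the other ligand, at 22.4, 60.55, 204, 46.7 and 14.2 CPM. The phagocytes differed in makeup, with 4.46%, 9.56%, 19.2%, 63.5% and 40% dendritic and Langerhans cells in the same order. The part of this makeup in the Ccl22 and Ccl17 levels was not tested. Ccr4 reached at most 7.16 CPM in T and NK cells. Cxcr6 stood at 36.5, 32.4, 44.6, 86.5 and 34.8 CPM there, and its ligand Cxcl16 in keratinocytes at 168, 152, 50.2, 72.7 and 66.9 CPM. Ccl28, the other ligand of Ccr10, reached at most 0.0329 CPM in any cell type. In keratinocytes 1 of 4 measured genes of this list was at least 2-fold higher on day 7, 2 of 6 on day 14, 2 of 6 on day 28 and 0 of 5 on day 60, and 0, 4, 3 and 4 were lower. In T and NK cells 0 of 2, 3 of 5, 1 of 6 and 1 of 4 were higher, and 0, 1, 1 and 1 lower. Of all keratinocyte genes tested, 9.94%, 8.25%, 7.16% and 4.83% were at least 2-fold higher on these days, and 7.35%, 36.4%, 21.2% and 19.3% lower. For T and NK cells the shares were 17%, 16.6%, 16.3% and 12.8% higher, and 4.61%, 5.49%, 11.5% and 15.4% lower. There too a gene could reach the 10 UMIs needed through the irradiated library alone.

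Across 79 units of cell type and library, the genes whose log2 levels were most like those of Ccl20, among 6669 compared, were Ovol1 (Pearson r 0.92), Epgn (0.92), Serpinb5 (0.91), Ankrd22 (0.91) and Pak6 (0.90). Ovol1 is a transcription factor of epidermal differentiation, Epgn a ligand of the EGF receptor and Serpinb5 an epithelial serpin. Most like Ccl27 were Slc6a4 (0.91), the serotonin transporter, Col17a1 (0.89), a hemidesmosome collagen that is also a marker of the basal gate, Fcgbp (0.89), Rab15 (0.86) and Fgfr2 (0.86), the receptor for FGF7 on keratinocytes. Most like Ccr6 were Il22 (0.92), Tnfrsf4 (0.91), Adam18 (0.90), Icos (0.90) and Cxcr6 (0.90), of which Icos and Tnfrsf4 are costimulatory receptors of T cells. For Ccr10 the highest were Gpatch11 (0.38), Prxl2b (0.37), Fam189b (0.32), Mt-co3 (0.30) and Ebag9 (0.30), weak values from counts close to 0. The units share libraries and depth, so these values are a description.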

How the data were processed

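Raw UMI counts per barcode and gene were deposited by the authors with no normalization, and the submitters' processing notes name Cell Ranger 5.0.0, STAR, Seurat 3.1.1 and the build Rnor_6.0. Total counts per library were 70073362 to 139566348. Rows of the same symbol were summed. The 4 genes, the marker and gene lists and the rule for named genes were chosen with earlier results of these data known. Named genes are the 4 genes, the highest and the 2-fold changed genes of each list, and the 5 genes of highest correlation with each.

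Barcodes with at least 500 UMIs, 300 genes and at most 20% mitochondrial UMIs were kept (25.5% of day 14 barcodes were over the last limit, and 6.4% to 14.1% in the other libraries). Each marker's log level was divided by its 90th percentile among positive cells and limited to 1. A class score was the mean over its markers less the library's median outside the class. A cell took the class with the highest score, with a score of at least 0.15 and a lead of 0.1, a rule adjusted after the data were seen. Cells between classes stayed unassigned, and no doublet caller was run, so doublets remain. Of 157 marker symbols 150 and of 63 list symbols 61 were found. One list gene is not reported here. The libraries shared 11 to 41 barcodes in any pair, at most 0.382% of the smaller library.

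Counts were summed per cell type and library with at least 50 cells, divided by all UMIs of those cells, and given with exact Poisson 95% intervals, ratios with the exact conditional binomial interval and shares with the Clopper-Pearson interval. A count of 0 was set to 3 counts for ratios. Genes need 10 UMIs in either library to be compared, and correlations used log2(CPM + 5). Ratio intervals were run on sums simulated by the Poisson model that they assume, without the clumping of UMIs in few cells. That run cannot show whether the intervals are wide enough for the real cells. Alternatives were a stricter cell filter, 2 other gate rules, other totals, thinning, cells weighted singly, removal of the barcodes of highest UMIs or of the cells richest in the gene, and a higher gene filter; 2 more were added after seeing the data. Python 3.11.15, numpy 2.4.6, scipy 1.17.1 and pandas 2.3.3 were used.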

Additional observations from a re-analysis of the deposited data

Results flagged for a closer look

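Ccl20 in the deeper hair follicle keratinocytes had a log2 ratio to control of 1.116 on day 28 and 1.865 on day 60, while the other 5 and 7 subtypes compared were below control in these libraries. On day 7 it was 0.031, within counting error of control, with basal (0.429) and proliferating cells (0.4) further above control and the other 4 subtypes below it. The difference between subtypes was not tested, since each library is 1 sample.

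Ccr6 was also counted in cells outside the cell types compared. In kept cells without a class it stood at 1.52 CPM in control (7 UMIs in 749 cells), 17.6 CPM on day 14, 42.8 CPM on day 28 (143 UMIs in 1165 cells) and 6.59 CPM on day 60. In barcodes left out by the cell filter it was 0 in 722 control barcodes and 13.5 CPM on day 28 (35 UMIs in 1688 barcodes). Ccr10 in kept cells without a class stood at 0.435 CPM in control and 5.18 CPM on day 60 (11 UMIs in 244 cells).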

How the results depend on the processing

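The libraries are single, so the limits are the animal and preparation behind each, the 75 control T and NK cells and the few Ccr10 UMIs. No paired analysis was possible because each group has 1 library and no test was made. All values here are log2 ratios to control in keratinocytes unless stated. Under the 8 settings of the next paragraph, no ratio of Ccl20, Ccl27 or Ccr6 changed sign, and the Ccr6 ratios stayed within their counting intervals (0.67 to 1.85 on day 7). With equal weight for basal, proliferating and suprabasal cells, chosen after seeing the data, Ccl20 was 0.013, -2.634, -1.724 and -1.916 on days 7, 14, 28 and 60, so its day 7 direction turned, and Ccl27 -4.084, -4.179, -1.789 and -1.458.

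With types called by the number of markers, Ccl20 was -0.182 on day 7 and -1.347 on day 28, and Ccl27 -3.532 and -1.806. With a larger lead, Ccl20 was -0.100 on day 7 and -1.362 on day 28, and Ccl27 -3.566 on day 7 and -1.034 on day 60. With cells weighted singly, Ccl20 was -0.197, -2.144, -1.245 and -1.463, and Ccl27 -4.817, -1.753 and -0.751 on days 14, 28 and 60. With the stricter cell filter, Ccl20 was -0.110 on day 7 and -1.598 on day 60. Thinned, Ccl20 was -0.183, -2.100, -1.280 and -1.468, and Ccl27 -5.261, -1.775 and -0.783 on days 14, 28 and 60. Without mitochondrial and ribosomal protein genes in the totals, Ccl20 was -0.193, -1.413 and -1.583 and Ccl27 -3.542, -1.684 and -0.957 on days 7, 28 and 60; this shifted all ratios in T and NK cells by -0.139, -0.127, -0.167 and -0.067. Without the barcodes of highest UMIs, Ccl20 was -0.167, -2.097, -1.205 and -1.615, and Ccl27 -3.410, -1.954 and -0.942 on days 7, 28 and 60. Without the 1% of cells richest in the gene, Ccl20 was -1.300 on day 28 and -1.653 on day 60, and Ccl27 -3.826, -5.842, -1.930 and -1.038. The cause was not tested.

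With at least 50 UMIs in place of 10, genes at least 2-fold higher in keratinocytes numbered 850 on day 7 in place of 1402, 642 on day 28 in place of 1029 and 422 on day 60 in place of 704, and those lower 666 on day 7 in place of 1036. In T and NK cells 158, 443, 494 and 174 were higher in place of 798, 1216, 1165 and 688, and 24, 84, 187 and 155 lower in place of 217, 401, 820 and 831. Fewer genes were tested, and the share of those lower was less too, 1.85%, 2.51%, 6.04% and 9.07% in place of 4.61%, 5.49%, 11.5% and 15.4%.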
